A study of Homo sapiens with 46 samples.

Results

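The circadian clock genes described here were 10 genes chosen by name, NR1D1, NR1D2, PER1, PER2, PER3, CRY1, CRY2, CLOCK, DBP and TEF, out of 62756 genes counted in 46 RNA-seq libraries. All 10 were found by symbol in the gene table. The group was drawn up with a measured value in view, the lower NR1D1 level in the line with degradable lamin B1, so every value of that line after auxin, of its difference from the untagged line and of its 0 h group is given below as a description without a test. The libraries came from DLD-1, an established human colorectal adenocarcinoma cell line. The parental cells carried no tag. In the 3 tagged lines the endogenous lamin A/C (LAC), lamin B1 (LB1) or lamin B2 (LB2) protein bore an auxin-inducible degron at its N-terminus, a tag that lets the plant hormone auxin send the protein to the proteasome. Cells of all 4 lines, the untagged one included, were given 1 mM auxin for 0, 16 or 96 h, which made 12 groups, 10 of them with 4 libraries and 2 (LB1 at 0 h and LB2 at 96 h) with 3. Each library came from 1 well of a plate, so the p-values measure the spread between wells. Whether the 0 h wells received the solvent, whether a tagged line was 1 clone, at what time of day cells were harvested and whether their clocks were synchronised is not given in the sources used here.

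Nearly every human cell holds a circadian clock, a feedback loop of transcription with a period of about a day. The proteins CLOCK and BMAL1 bind E-box sequences as a pair and switch on the PER and CRY genes, whose products enter the nucleus and block that pair. A second loop joins it: the nuclear receptors NR1D1 and NR1D2 (REV-ERB alpha and beta) repress BMAL1 at RORE sequences, and DBP and TEF, activators with a PAR and a bZIP domain, act at D-box sequences. In a culture whose cells run out of phase, a bulk level is an average over phases. Such a library also cannot tell fewer expressing cells from less RNA per cell.

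Promoter sequence is shown for the pair of NR1D genes and TEF, whose levels in the LB1 line were each lowest at 96 h, and for PER2, which rose in the 3 tested lines. The sequences are from RefSeq, build GRCh38.p14, read 5′ to 3′ on the strand of the gene, within the 250 bases before an annotated start site and trimmed to the longest stretch outside annotated exons. Capitals mark every match, on either strand, to 1 of 6 strings: the E-box CACGTG, the D-box TTATGTAA and its variant TTATGCAA, the RORE cores TAGGTCA and TGGGTCA, and the cAMP-responsive element TGACGTCA.
NR1D1, chr17:40100726-40100839, minus strand: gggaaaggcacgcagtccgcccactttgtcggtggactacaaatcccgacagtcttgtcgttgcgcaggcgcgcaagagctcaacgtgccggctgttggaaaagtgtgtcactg
NR1D2, chr3:23945871-23946120, plus strand: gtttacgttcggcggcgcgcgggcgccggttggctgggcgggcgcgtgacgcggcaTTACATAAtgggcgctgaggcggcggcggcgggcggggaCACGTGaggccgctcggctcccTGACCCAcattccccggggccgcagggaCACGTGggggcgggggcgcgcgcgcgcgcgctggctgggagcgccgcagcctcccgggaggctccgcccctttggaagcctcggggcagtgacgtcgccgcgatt
TEF, chr22:41367205-41367332, plus strand: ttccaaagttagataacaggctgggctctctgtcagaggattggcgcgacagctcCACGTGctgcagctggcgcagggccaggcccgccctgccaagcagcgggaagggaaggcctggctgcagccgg
PER2, chr2:238288611-238288860, minus strand: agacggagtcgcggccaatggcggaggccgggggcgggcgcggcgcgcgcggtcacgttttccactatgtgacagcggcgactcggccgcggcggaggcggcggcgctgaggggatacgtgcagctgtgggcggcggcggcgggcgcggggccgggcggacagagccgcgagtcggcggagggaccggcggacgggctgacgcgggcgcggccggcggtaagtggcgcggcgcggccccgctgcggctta
The NR1D2 stretch held 2 E-boxes, beginning 155 and 105 bases before the start site, with a D-box and a RORE core on its other strand. The TEF stretch held 1 E-box, 195 bases before the start, and a further E-box lay 193 bases before the other annotated start of TEF. No string matched in the NR1D1 or PER2 stretches, nor anywhere in the windows of NR1D1, PER2, CRY1 and DBP, which were searched from 250 bases before to 50 after the start. Of the other members, PER1 held an E-box and the D-box variant, PER3 a D-box, CRY2 the core TAGGTCA and CLOCK the core TGGGTCA. NR1D2, PER3, CRY2 and CLOCK each had a window at another annotated start, and no string matched there. Among 35116 promoter windows of that length, 7.26% held the E-box, 0.886% the D-box, 0.846% its variant, 1.85% TAGGTCA, 3.92% TGGGTCA and 1.85% the cAMP-responsive element. A match is a description of these letters and not evidence of binding. Only exact copies of the 6 strings were sought, so a stretch without a match may still hold an element spelled otherwise.

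The libraries held from 479446 to 37309421 counts (median 11533218), and levels below are counts per 1000000 (CPM) after TMM scaling, which corrects library sizes for composition. Under 5000000 counts lay 6 libraries, 5 of them in 0 h groups: parental replicate 4, LAC replicate 1, LB1 replicate 2, and LB2 replicates 1 and 4 at 0 h, and LB2 replicate 3 at 16 h. Epithelial markers (8 genes, CDH1, EPCAM, keratins, CDX2 and VIL1 among them) summed to between 5473 and 12579 CPM in every library, most of it from KRT8 (mean 4223 CPM) and KRT18 (1599). VIL1 was nearly absent, at a mean of 1.41 CPM, no more than COL1A1 (1.47), a fibroblast gene. The 6 markers of fibroblasts, endothelium and blood cells summed to at most 6.15 CPM. The degron removes protein, so the lamin mRNAs do not check the labels. At 0 h LMNA averaged 435 CPM in the LAC line against 738 in the parental line, LMNB1 averaged 94.7 in the LB1 line against 147 and LMNB2 averaged 142.6 in the LB2 line against 283.

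All 10 genes passed the filter on low counts, and their abundance per transcript length spanned a wide range. Over the 46 libraries NR1D2 averaged 24.4 CPM per kilobase of exon and CLOCK 17.8. CRY1 followed with 9.73, NR1D1 with 8.45 and PER2 with 6.19, then TEF with 4.65, CRY2 with 3.95 and PER1 with 3.03. DBP at 1.48 and PER3 at 0.506 CPM per kilobase were the scarcest. PER3 had 0 counts in the shallowest library, LB2 replicate 3 at 16 h, where the upper limit set by a count of 0 (3 counts) is 6.26 CPM. Between groups, PER2 had the widest range of mean levels, 5.36-fold from its lowest to its highest group, and PER1 the narrowest, 1.43-fold.

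In the LB1 line NR1D1, NR1D2, TEF and DBP were lower after auxin than before it, while PER2 was higher. These are the values by which the group was drawn up, or come from the same contrasts. NR1D1 stood at 35.0, 49.1 and 32.1 CPM at 0 h, at 19.8, 22.7, 22.9 and 24.0 CPM at 16 h and at 10.8, 10.3, 13.9 and 16.3 CPM at 96 h. None of the 3 sets of values overlapped another. The mean level went from 38.8 ± 9.10 (SD, n = 3) CPM over 22.3 ± 1.81 (SD, n = 4) to 12.8 ± 2.80 (SD, n = 4), a log2 change of -0.74 ± 0.18 (± SE) at 16 h and of -1.55 ± 0.19 at 96 h. The highest 0 h value belonged to the shallow library, replicate 2, with 74 NR1D1 counts. Without it the log2 change was -0.59 at 16 h and -1.40 at 96 h, and under all 15 alternatives tried it lay between -0.88 and -0.57 at 16 h and between -1.66 and -1.40 at 96 h.

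NR1D2, the paralogue that shares NR1D1's repressor role, was at 177, 159 and 185 CPM at 0 h in the LB1 line, at 109, 114, 143 and 145 CPM at 16 h and at 79.6, 63.2, 64.8 and 84.8 CPM at 96 h. Here too the 3 times did not overlap. The log2 change was -0.45 ± 0.16 at 16 h and -1.25 ± 0.16 at 96 h, when the level was 2.39-fold lower than at 0 h. At 96 h the LB1 line had the lowest mean of the 12 groups for both receptors, and for NR1D2 its libraries all lay below those of the group ranked next, LB2 at 96 h (109, 91.1 and 93.5 CPM).

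TEF stood at 31.7, 37.8 and 39.1 CPM at 0 h, 31.9, 21.9, 30.1 and 28.9 CPM at 16 h and 14.5, 15.8, 19.2 and 19.1 CPM at 96 h in the LB1 line. The 16 h values overlapped those at 0 h and the 96 h values did not, with log2 changes of -0.35 ± 0.17 and -1.07 ± 0.17. DBP, the scarcer of the 2 D-box activators, was at 14.7, 16.6 and 21.7 CPM at 0 h, 10.3, 11.4, 7.00 and 7.82 CPM at 16 h and 7.60, 9.88, 12.6 and 11.5 CPM at 96 h. Unlike the other 3 genes, DBP was no lower at 96 h than at 16 h: its log2 change was -0.98 ± 0.27 at 16 h and -0.77 ± 0.27 at 96 h, and the 2 times overlapped each other but not the 0 h values.

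**Figure D1:**
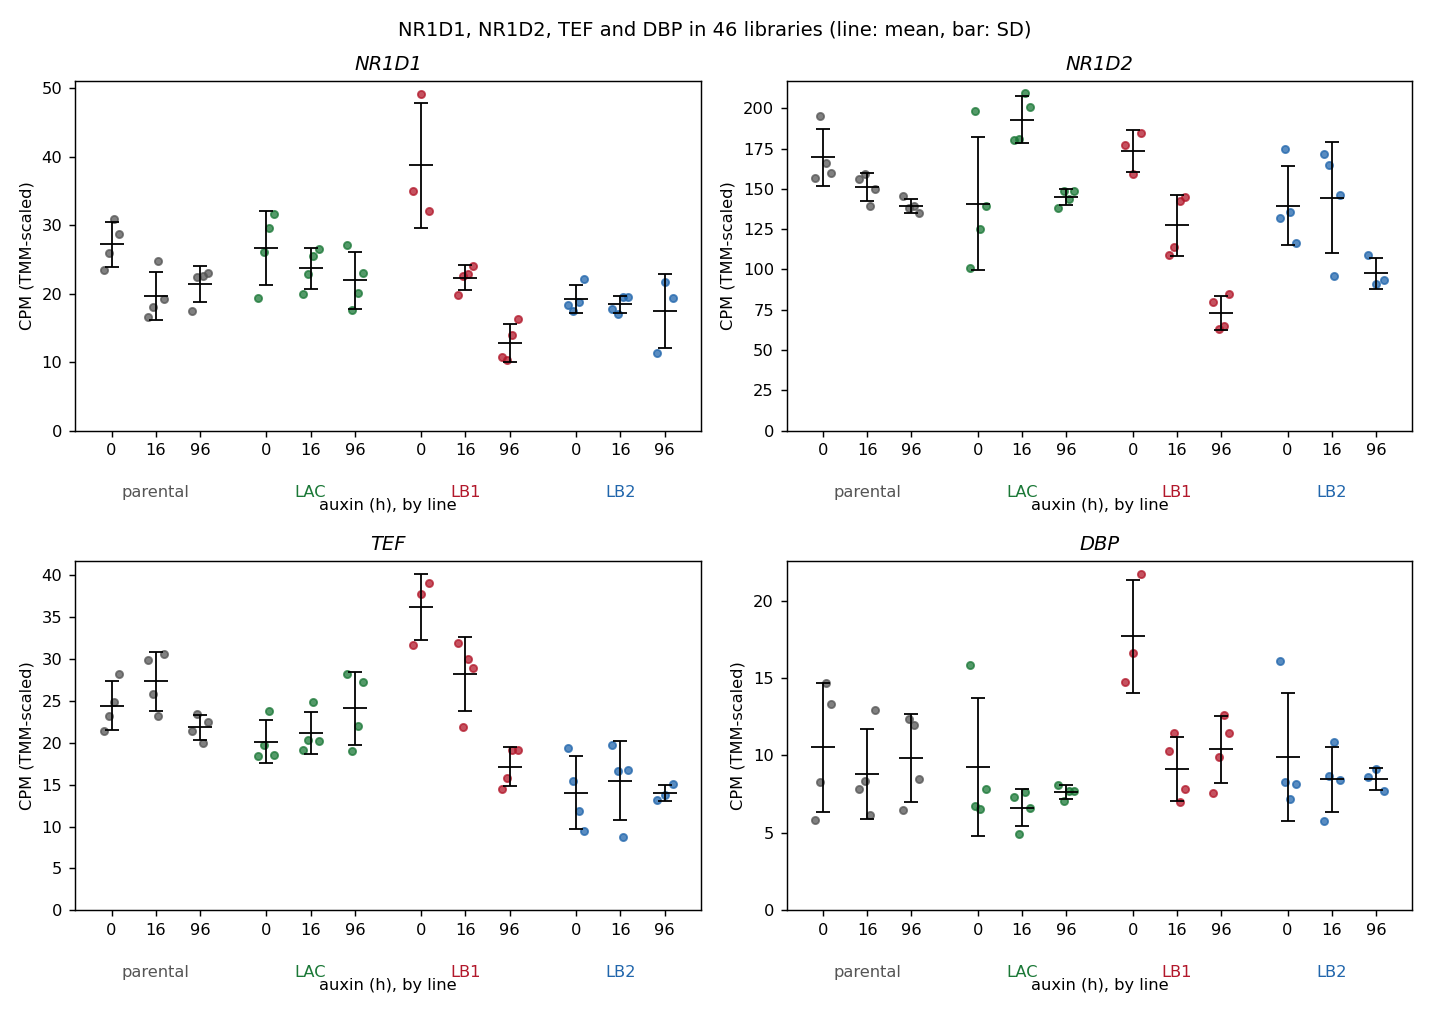
Levels of NR1D1, NR1D2, TEF and DBP in all 46 libraries, in TMM-scaled CPM on axes that start at 0, by line and hours of auxin; each point is a library, the horizontal line the group mean and the bar the SD. In the LB1 line (red) NR1D1 went from a mean of 38.8 CPM at 0 h to 12.8 at 96 h and NR1D2 from 174 to 73.1, while the LB1 line at 0 h had the highest mean of the 12 groups for NR1D1, TEF and DBP.

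The starting level of the LB1 line was itself apart. Before auxin, NR1D1 averaged 38.8 ± 9.10 (SD, n = 3) CPM there against 27.2 ± 3.26 (SD, n = 4) in the parental line, TEF 36.2 ± 3.95 (SD, n = 3) against 24.5 ± 2.91 (SD, n = 4) and DBP 17.7 ± 3.62 (SD, n = 3) against 10.5 ± 4.17 (SD, n = 4). The log2 differences were 0.46 ± 0.19, 0.56 ± 0.17 and 0.80 ± 0.28, and 1.18 ± 0.15 for PER2, the largest of the 10. CRY2 was higher too, by 0.50 ± 0.16 (24.8 CPM against 16.8), and PER3 was at -0.48 ± 0.30 with overlap. NR1D2, at 0.04 ± 0.16, was near the parental level. PER1, CRY1 and CLOCK were at 0.16 ± 0.21, 0.03 ± 0.14 and -0.03 ± 0.18. NR1D1, TEF, PER2 and CRY2 did not overlap the parental values, while the lowest DBP value and the highest parental one were both 14.7 CPM. Since the 0 h libraries enter every change of the LB1 line, a high starting level and a large decrease share those libraries. In level at 96 h, again without a test, NR1D1 was at 10.8, 10.3, 13.9 and 16.3 CPM in the LB1 line against 17.4, 22.4, 22.7 and 23.0 CPM in the parental line, and NR1D2 at 79.6, 63.2, 64.8 and 84.8 CPM against 146, 138, 139 and 135 CPM. TEF was at 14.5, 15.8, 19.2 and 19.1 CPM against 21.4, 23.4, 20.0 and 22.5 CPM. These 3 were lower in the LB1 line without overlap. DBP was not lower there, with a mean of 10.4 CPM against 9.81 and overlapping libraries, and PER2 was higher without overlap, 65.5 CPM against 48.5.

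NR1D1 shares 473 of its 2630 exon bases (18.0%) with THRA, the thyroid hormone receptor alpha gene on the opposite strand. Whether the counting used strand is not given in the sources used here, so reads in that stretch may be credited to either gene. THRA averaged 24.9 CPM at 0 h, 21.4 at 16 h and 18.3 at 96 h in the LB1 line, log2 changes of -0.26 ± 0.21 and -0.46 ± 0.21. Those were smaller than the changes of NR1D1 at both times.

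In the other lines NR1D1 did not pass the test at either time. It stood at 23.4, 25.9, 30.8 and 28.8 CPM in the parental line at 0 h, 16.6, 18.1, 24.7 and 19.3 CPM at 16 h and 17.4, 22.4, 22.7 and 23.0 CPM at 96 h. The values at 16 h overlapped those at 0 h by 1 library and those at 96 h lay just below them. The log2 changes were -0.48 ± 0.17 (edgeR's quasi-likelihood test, Benjamini-Hochberg adjusted p = 0.0723) and -0.35 ± 0.17 (edgeR adjusted p = 0.216). At 16 h the call depended on the processing: 7 of 16 alternatives gave an adjusted p under 0.05, among them the edgeR fit to these groups alone (0.00745) and DESeq2 (0.0185), with adjusted p from 0.00745 to 0.28 over all of them.

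In the LAC line NR1D1 was at 19.4, 26.1, 29.5 and 31.7 CPM at 0 h, 19.9, 22.8, 25.6 and 26.5 CPM at 16 h and 27.1, 17.6, 20.0 and 23.0 CPM at 96 h, and the 3 sets overlapped (log2 change -0.19 ± 0.17 and -0.30 ± 0.17, edgeR adjusted p = 0.554 and 0.232). In the LB2 line it was at 18.3, 17.4, 18.9 and 22.2 CPM, then 17.7, 17.1, 19.6 and 19.5 CPM and 11.3, 21.7 and 19.4 CPM, again overlapping (log2 change -0.07 ± 0.18 and -0.12 ± 0.19, edgeR adjusted p = 0.891 and 0.836). Ordered by mean level, NR1D1 was highest in the LB1 line at 0 h, which overlapped none of the parental values ranked next, and lowest in the LB1 line at 96 h. All neighbours from the second place to the last overlapped, from 27.2 CPM in the parental line at 0 h down to 17.5 in the LB2 line at 96 h and 12.8 in the LB1 line at 96 h.

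NR1D2 did not pass in the 3 tested lines either. It came closest in the LB2 line at 96 h, with 109, 91.1 and 93.5 CPM against 132, 175, 136 and 116 CPM at 0 h. These did not overlap, and the log2 change of -0.52 ± 0.16 had an edgeR adjusted p of 0.0504, which fell on the other side of 0.05 in 4 of 15 alternatives, DESeq2 among them (0.00444). In the LAC line at 16 h NR1D2 was at 181, 181, 209.6 and 201 CPM against 101, 198, 125 and 139.6 CPM at 0 h, the opposite sign (log2 0.44 ± 0.14, edgeR adjusted p = 0.0758). Without LAC replicate 2 at 0 h, the highest of those, the LAC value at 16 h was 0.67 with an edgeR adjusted p of 0.00255. Without libraries under 5000000 counts it was 0.31 (edgeR adjusted p = 0.236). Over 16 alternatives it ran from 0.14 to 0.67, with edgeR or DESeq2 adjusted p up to 0.45, and 2 of them gave a call.

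The clearest change outside the LB1 line was a rise of PER2, the feedback repressor that binds CRY proteins, in every tested line and at both times. The parental libraries held 19.5, 20.7, 22.8 and 17.2 CPM at 0 h, 41.0, 41.9, 43.6 and 42.8 CPM at 16 h and 44.8, 45.5, 51.4 and 52.4 CPM at 96 h. No treated library overlapped a 0 h library. PER2 thus rose 2.10-fold at 16 h (log2 1.07 ± 0.13, edgeR adjusted p = 8.25e-07) and 2.41-fold at 96 h (log2 1.27 ± 0.13, edgeR adjusted p = 5.02e-09) in cells that carry no degron.

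In the LB2 line PER2 was at 15.5, 13.2, 12.9 and 17.6 CPM at 0 h, 43.1, 41.4, 28.3 and 36.1 CPM at 16 h and 43.0, 46.7 and 47.2 CPM at 96 h, without overlap with 0 h. The rise was 2.71-fold (log2 1.44 ± 0.14, edgeR adjusted p = 2.34e-09) and 3.17-fold (log2 1.66 ± 0.15, edgeR adjusted p = 5.22e-11), the latter the largest of any member in a tested line. The LAC line held 19.1, 30.9, 31.6 and 33.3 CPM at 0 h, 43.8, 46.2, 48.8 and 51.9 CPM at 16 h and 62.4, 47.5, 45.4 and 51.6 CPM at 96 h, also without overlap. There the rise was 1.63-fold (log2 0.70 ± 0.13, edgeR adjusted p = 0.00154) and 1.76-fold (log2 0.82 ± 0.13, edgeR adjusted p = 1.39e-05). Fitted to the compared groups alone, the 16 h rises no longer passed in the LAC line (log2 0.68, edgeR adjusted p = 0.334) or the LB2 line (log2 1.32, edgeR adjusted p = 0.0582).

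For comparison, and without a test, the LB1 line held 42.1, 47.1 and 48.1 CPM of PER2 at 0 h, 73.2, 79.3, 83.8 and 81.1 CPM at 16 h and 64.1, 56.4, 65.1 and 76.3 CPM at 96 h. The log2 change was 0.80 ± 0.14 and 0.52 ± 0.14. The LB1 line at 0 h was already at 45.8 CPM, a mean next to that of the LAC line at 16 h (47.7) and above that of the parental line at 16 h (42.3). Its 16 h and 96 h groups had the 2 highest PER2 means of the 12, 79.3 and 65.5 CPM.

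CRY2, a cryptochrome that represses CLOCK and BMAL1 together with the PER proteins, rose in the parental and LB2 lines. Parental libraries held 17.1, 18.7, 18.3 and 13.3 CPM at 0 h, 25.4, 24.4, 27.0 and 28.4 CPM at 16 h and 23.5, 31.6, 26.6 and 25.8 CPM at 96 h. Neither time overlapped 0 h, and the rise was 1.54-fold (log2 0.63 ± 0.14, edgeR adjusted p = 0.00341) and 1.58-fold (log2 0.66 ± 0.14, edgeR adjusted p = 0.0017). The LB2 libraries held 15.5, 12.4, 16.1 and 11.0 CPM, then 27.1, 22.3, 21.8 and 22.3 CPM and 21.5, 25.4 and 23.1 CPM, again without overlap with 0 h, and the rise was 1.74-fold (log2 0.80 ± 0.15, edgeR adjusted p = 0.00139) and 1.71-fold (log2 0.77 ± 0.15, edgeR adjusted p = 0.00111). Both LB2 calls were lost in the edgeR fit to the compared groups alone (adjusted p = 0.705 at 16 h and 0.152 at 96 h).

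In the LAC line CRY2 stood at 27.5, 20.7, 20.2 and 18.6 CPM at 0 h and 30.1, 26.0, 27.9 and 28.9 CPM at 16 h, with an overlap that came from the shallow replicate 1 at 0 h. The log2 change there was 0.40 ± 0.14 at 16 h (edgeR adjusted p = 0.0887) and 0.25 ± 0.14 at 96 h (edgeR adjusted p = 0.226). With the libraries under 5000000 counts left out, the 16 h value was 0.50 with an edgeR adjusted p of 0.0399. The LB1 line, not tested, had 22.3, 28.5 and 23.6 CPM at 0 h and 37.8, 41.3, 36.2 and 29.4 CPM at 16 h, and at 96 h its values (22.3, 25.4, 30.6 and 29.2 CPM) overlapped those at 0 h, with log2 changes of 0.58 ± 0.15 and 0.16 ± 0.15.

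CLOCK, the activating bHLH-PAS subunit and the member with the most counts, rose at 16 h in the parental and LB2 lines. It was at 155, 209, 149 and 151 CPM in the parental line at 0 h and at 255, 249.6, 240.1 and 222 CPM at 16 h, without overlap (log2 0.54 ± 0.16, edgeR adjusted p = 0.032). In the LB2 line it was at 102, 178, 164 and 162 CPM at 0 h and 292, 257, 137 and 231 CPM at 16 h, with 1 overlapping library, the shallow replicate 3 (log2 0.63 ± 0.17, edgeR adjusted p = 0.0358). Both calls were near the threshold and each was lost in 9 of 16 alternatives: the parental one with either other scaling and whenever any library other than replicate 2 at 0 h was left out, and the LB2 one with either other scaling, in the compared groups alone and in 6 of 8 single-library omissions. Over all alternatives the edgeR or DESeq2 adjusted p reached 0.0992 and 0.735. At 96 h and in the LAC line CLOCK did not pass, with log2 changes from 0.27 (LAC, 96 h) to 0.49 (LAC, 16 h). The LB1 line's values were 0.47 ± 0.18 and 0.16 ± 0.18.

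CRY1, PER1 and PER3 did not pass against 0 h in any tested line. CRY1, the other cryptochrome, had log2 changes from -0.02 (LAC, 96 h) to 0.32 (LB2, 16 h), and 0.45 ± 0.14 at 16 h in the LB1 line. PER1 ranged from -0.03 (LAC, 96 h) to 0.38 (parental, 96 h), and PER3 from -0.39 (LB2, 96 h) to -0.02 (parental, 16 h). TEF and DBP, lower in the LB1 line, did not pass against 0 h elsewhere: TEF lay between -0.15 and 0.34 and DBP between -0.37 and -0.08. DBP shares 661 of its 6485 exon bases (10.2%) with SPHK2 on the other strand, so its counts carry the same kind of uncertainty as those of NR1D1. In the LB1 line the log2 change of SPHK2 was 0.18 ± 0.27 at 16 h and -0.08 ± 0.27 at 96 h. PER3 shares 868 of 8128 (10.7%) with UTS2, which held only 78 counts over all libraries, against 10242 for THRA and 19171 for SPHK2.

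**Figure D2:**
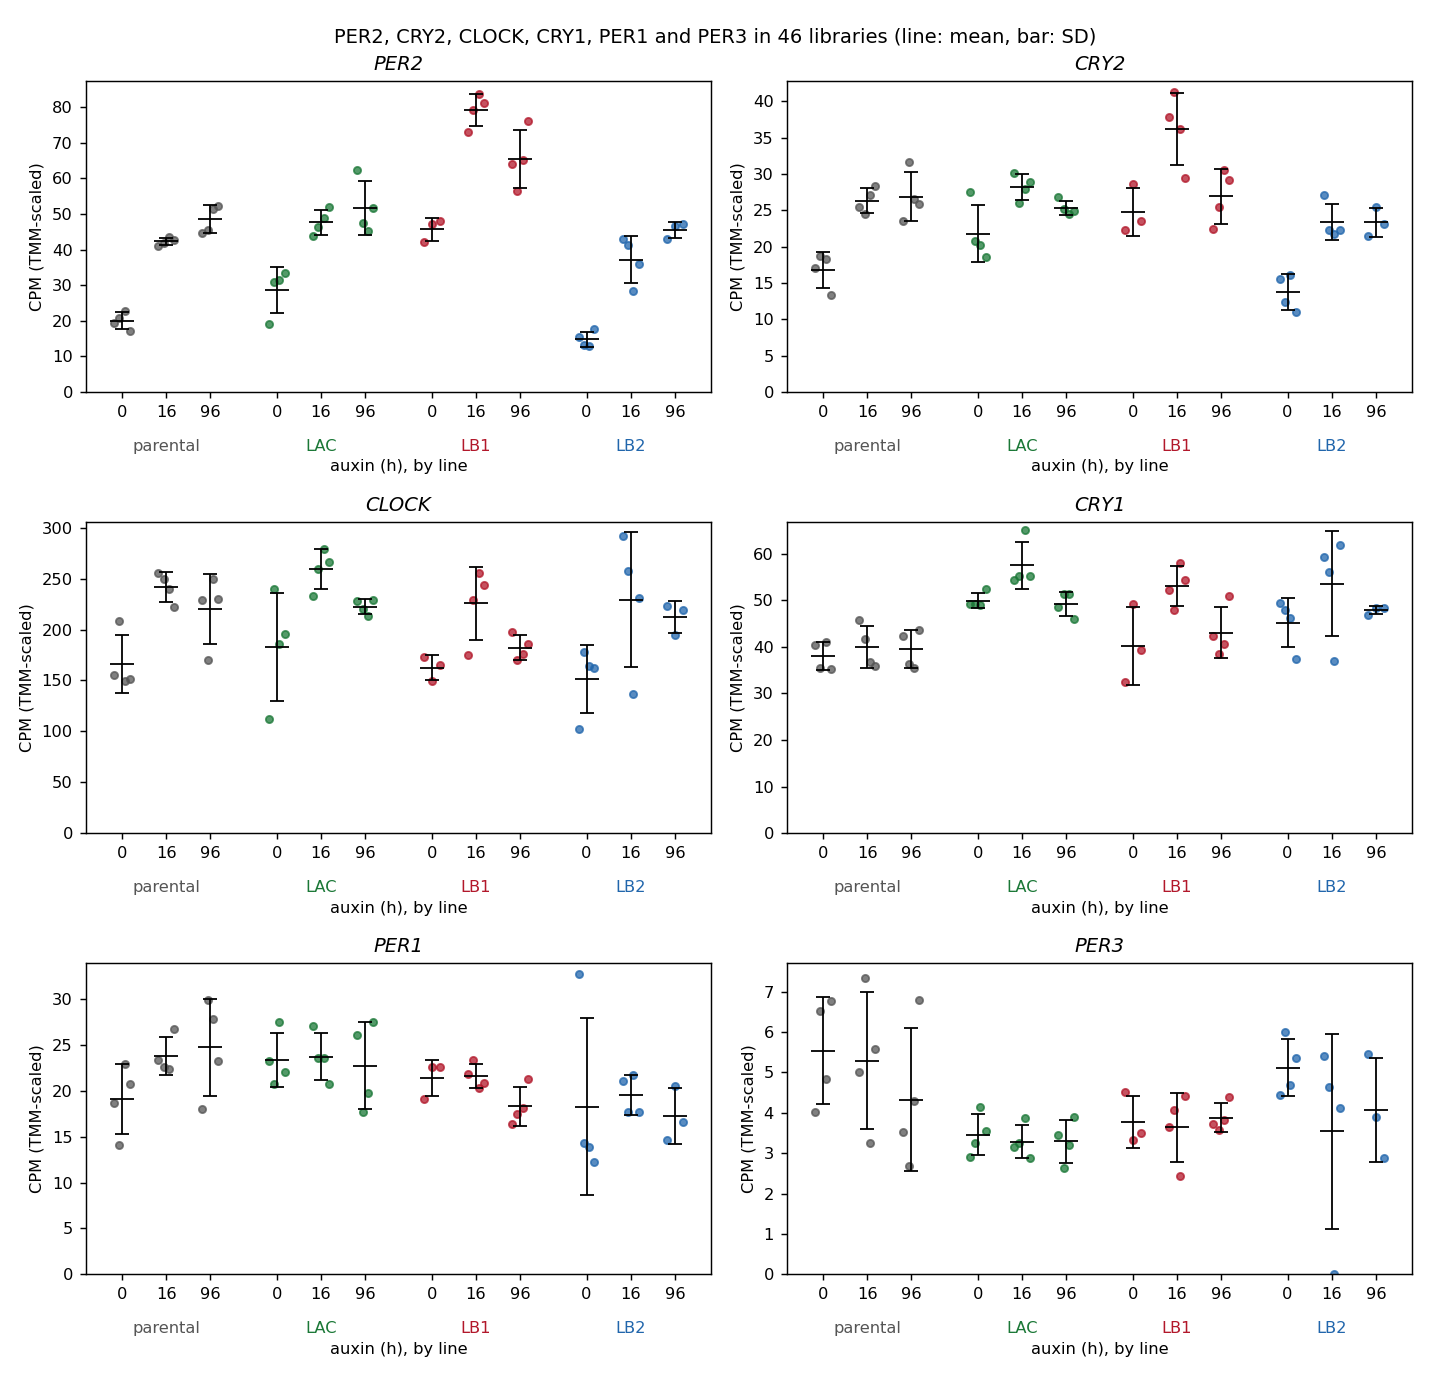
Levels of PER2, CRY2, CLOCK, CRY1, PER1 and PER3 in all 46 libraries, in TMM-scaled CPM on axes that start at 0, by line and hours of auxin; each point is a library, the horizontal line the group mean and the bar the SD. PER2 was higher at 16 and 96 h than at 0 h in every library of all 4 lines, while PER1 and PER3 overlapped between times in each line.

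Counted over the group, 3 of 10 members were called in the parental line at 16 h, all higher (PER2, CRY2, CLOCK), where 9.01% of the 21484 genes tested were called, 4.23% higher and 4.78% lower. At 96 h it was 2 of 10 (PER2, CRY2), both higher, where 7.78% of all genes were called, 3.94% higher and 3.84% lower. The LB2 line gave 3 of 10 at 16 h (PER2, CRY2, CLOCK), all higher, against 1.81% of all genes, 1.43% higher and 0.377% lower. At 96 h the LB2 line gave 2 of 10 (PER2, CRY2), both higher, against 3.55%, 1.95% higher and 1.6% lower. The LAC line gave 1 of 10 (PER2), higher, at 16 h, against 1.78% of all genes, 1.34% higher and 0.447% lower. At 96 h it gave the same count, again PER2, against 15.4%, 6.74% higher and 8.64% lower. A share of 1 in 10 was no larger than that of all genes called in either direction. It was above the share called higher, and rests on 1 gene. No member was called lower in any of these 6 comparisons. The median log2 change of the 10 genes was 0.12 and -0.01 in the parental line at 16 and 96 h, 0.14 and 0.004 in the LAC line, and 0.26 and 0.05 in the LB2 line, beside -0.04, -0.03, -0.02, 0.03, -0.02 and -0.002 for all genes. In the LB1 line it was -0.03 and -0.12, beside -0.01 and 0.04. The log2 change of a gene went with its GC content in the LAC line (Spearman's rho -0.715 at 16 h and -0.658 at 96 h over 8539 genes, which are not independent replicates) and less so in the LB2 line (-0.484 and -0.219). In the LB1 line rho was 0.235 and -0.162. In the parental line rho was 0.0104 and 0.0242. Against parental at 0 h it was 0.491 for LAC, -0.225 for LB1 and -0.0193 for LB2. With the trend with GC content and length removed, 2 members were called in the LAC line at 16 h, where 1.64% of all genes were called in that fit, and 4 at 96 h, where 14.6% were. PER2 was among them at both times.

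**Figure D3:**
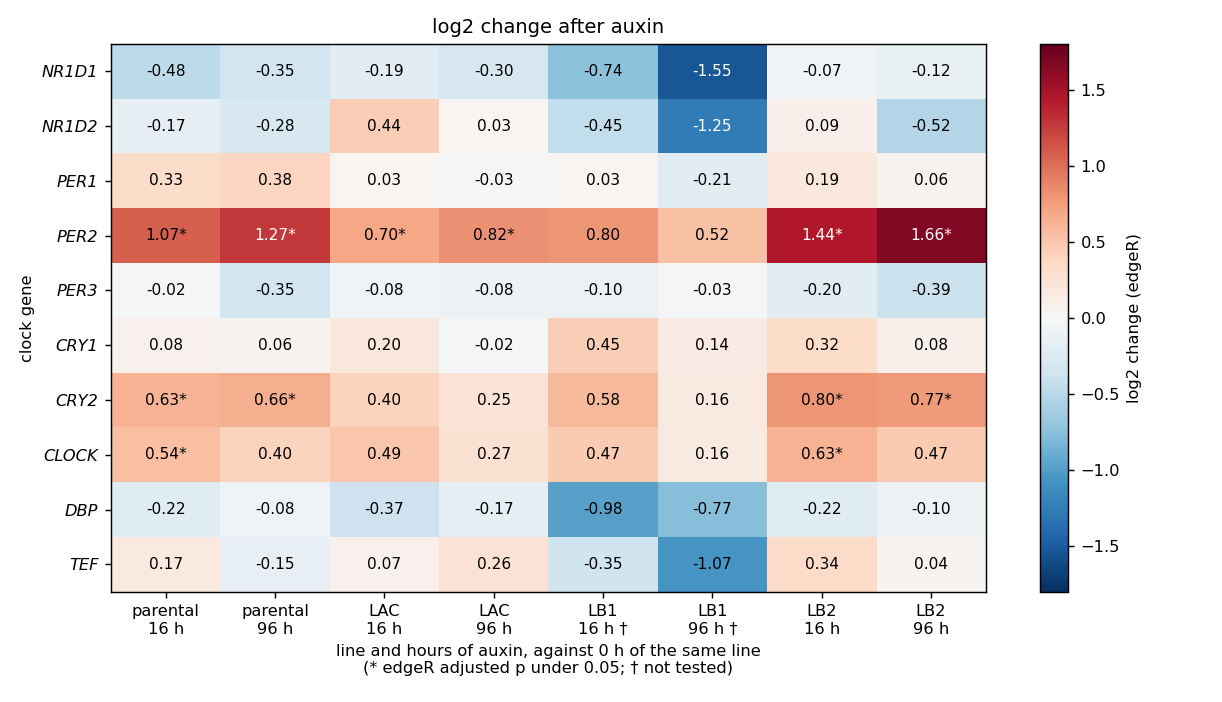
Heat map of the log2 change of each clock gene (rows) at 16 and 96 h of auxin against 0 h of the same line (columns), colour and number both giving the log2 change from the edgeR fit; an asterisk marks an adjusted p under 0.05 and a dagger the LB1 columns, which were not tested. The PER2 row is positive in all 8 columns, from 0.52 to 1.66, and the lowest value is NR1D1 in the LB1 line at 96 h, -1.55.

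The parental line was given auxin but carries no degron, so each tagged line's change was also set against the parental change. Auxin, time in culture and hour of harvest cannot be told apart in the parental change. For LAC, 0 of 10 members passed at 16 h in the edgeR test (1 had an unadjusted p under 0.05, DESeq2 called 1, and 0.116% of all genes were called). At 96 h 0 of 10 passed (2 had an unadjusted p under 0.05, DESeq2 called 0, 7.4% of all genes). For LB2, edgeR called 0 of 10 at 16 h (0 at an unadjusted p under 0.05, 0 by DESeq2, 0.00465% of all genes) and 0 of 10 at 96 h (0, 0 and 0.368%). These comparisons share the parental libraries with each other and the 0 h libraries with the comparisons above.

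The PER2 rise differed from the parental one by -0.37 ± 0.19 at 16 h and -0.45 ± 0.18 at 96 h in the LAC line (edgeR adjusted p = 0.409 and 0.122) and by 0.37 ± 0.20 and 0.39 ± 0.20 in the LB2 line (edgeR adjusted p = 0.919 and 0.402). The LAC difference at 96 h passed when LAC replicate 1 at 0 h was left out (-0.60, edgeR adjusted p = 0.0269), when LAC replicate 1 at 96 h was (-0.59, 0.0417), or when all libraries under 5000000 counts were (-0.54, 0.033). For NR1D2 the LAC difference at 16 h was 0.61 ± 0.20 (edgeR adjusted p = 0.194), and it was the gene that DESeq2 called there. For the LB1 line the same differences, given without a test, were -0.26 ± 0.25 and -1.20 ± 0.25 for NR1D1, -0.28 ± 0.21 and -0.97 ± 0.21 for NR1D2, and -0.52 ± 0.23 and -0.91 ± 0.23 for TEF at 16 and 96 h. DBP stood at -0.76 ± 0.38 and -0.70 ± 0.38, and PER2 at -0.27 ± 0.19 and -0.75 ± 0.19. CRY2 stood at -0.04 ± 0.20 and -0.50 ± 0.20, and PER1 at -0.30 ± 0.27 and -0.59 ± 0.27. CLOCK was at -0.07 ± 0.24 and -0.24 ± 0.24. For CRY1 the differences were 0.37 ± 0.18 and 0.09 ± 0.18, and for PER3 -0.08 ± 0.39 and 0.32 ± 0.39.

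Before auxin the tagged lines also differed from the parental line in clock gene levels. In the LB2 line TEF was lower, with 19.4, 15.5, 11.9 and 9.43 CPM against 21.4, 23.2, 24.9 and 28.3 CPM, no overlap and a log2 difference of -0.84 ± 0.17 (edgeR adjusted p = 0.000704), and PER2 was lower by -0.48 ± 0.15 (edgeR adjusted p = 0.0303), with an overlap of 1 library on each side. The LAC line had higher PER2 (log2 0.54 ± 0.14, edgeR adjusted p = 0.00399) and higher CRY1, 49.2, 49.1, 49.1 and 52.3 CPM against 40.3, 35.5, 41.1 and 35.3 CPM without overlap (log2 0.39 ± 0.12, edgeR adjusted p = 0.0227). These were 2 of 10 members for each line, both lower for LB2, where 8.21% of all genes were called, 3.91% higher and 4.3% lower, and both higher for LAC, where 15.8% were, 8.71% higher and 7.08% lower. None of the 4 calls held in the edgeR fit to the compared groups alone (adjusted p = 0.0593 for TEF, 0.223 and 0.115 for PER2 in LB2 and LAC, and 0.109 for CRY1). The LB2 call of PER2 was also lost without parental replicate 1, 2 or 3 or LB2 replicate 2 or 3 (edgeR adjusted p from 0.06 to 0.127), and that of CRY1 without parental replicate 4 (edgeR adjusted p = 0.0677). NR1D1 in the LB2 line, 18.3, 17.4, 18.9 and 22.2 CPM against 23.4, 25.9, 30.8 and 28.8 CPM, did not overlap the parental values but did not pass (log2 -0.51 ± 0.18, edgeR adjusted p = 0.0718).

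Beyond the 10 genes, 18 further clock genes were listed, of which 15 passed the filter. BMAL1, partner of CLOCK and target of NR1D1 and NR1D2, did not pass in any comparison. It averaged 23.7 ± 4.18 (SD, n = 3) CPM at 0 h, 24.0 ± 4.53 (SD, n = 4) at 16 h and 25.9 ± 3.33 (SD, n = 4) at 96 h in the LB1 line, log2 changes of -0.02 ± 0.20 and 0.08 ± 0.20. Its parental values were 0.14 ± 0.19 and 0.11 ± 0.19 (edgeR adjusted p = 0.692 and 0.784). In the LAC line BMAL1 averaged 12.8 ± 5.25 (SD, n = 4) CPM at 0 h, with the lowest library at 5.50. There it averaged 15.5 ± 0.674 (SD, n = 4) at 16 h and 18.5 ± 1.48 (SD, n = 4) at 96 h. The LB2 means were 19.2, 18.3 and 20.7 CPM. CIPC, an inhibitor of the CLOCK and BMAL1 pair, rose in the parental line at 16 h (log2 0.41 ± 0.13, edgeR adjusted p = 0.0374) and 96 h (log2 0.60 ± 0.13, edgeR adjusted p = 0.00173), and the 16 h call was lost in 10 of 16 alternatives (adjusted p up to 0.158).

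In the edgeR test BHLHE40, a bHLH repressor that competes for E-boxes, was the 1 listed gene whose change differed from the parental one. In the LB2 line it rose from 23.8 ± 4.28 (SD, n = 4) CPM at 0 h to 50.3 ± 3.93 (SD, n = 3) at 96 h (log2 1.12 ± 0.19, edgeR adjusted p = 0.000117), against 37.5 ± 8.65 (SD, n = 4) and 36.0 ± 4.51 (SD, n = 4) in the parental line. The difference of changes was 1.16 ± 0.25 (edgeR adjusted p = 0.0266), and leaving out single libraries lost this call in 8 of 15 cases with adjusted p up to 0.0889. The LB2 line also started lower than the parental line (log2 -0.68 ± 0.18, edgeR adjusted p = 0.0112), and these 0 h libraries enter both values.

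Over this list 1 of 15 genes was called in the parental line at 16 h and 2 at 96 h, all higher. Of all genes 9.01% and 7.78% were called, 4.23% and 3.94% higher. The 1 of 15 is below the share called in either direction and above the share called higher, and rests on 1 gene. In the LAC line 0 of 15 passed in edgeR at 16 h (5 at an unadjusted p under 0.05, 2 by DESeq2, 1.78% of all genes). At 96 h 6 passed, 5 higher and 1 lower, where 15.4% of all genes were called, 6.74% higher and 8.64% lower. The LB2 line had 0 at 16 h (3 at an unadjusted p under 0.05, 0 by DESeq2, 1.81% of all genes). At 96 h it had 2, both higher, where 3.55% of all genes were called, 1.95% higher. Against parental at 0 h, edgeR called 0 of 15 for LAC (4 at an unadjusted p under 0.05, 1 by DESeq2, 15.8% of all genes). For LB2 it called 2 of 15, both lower, beside 8.21% of all genes called, 4.3% lower. All 8 clock output genes were tested. In the parental line 1 of the 8 was called lower at each time, beside 4.78% and 3.84% of all genes called lower. That gene was TSPAN4, a tetraspanin, with 83.5 ± 16.5 (SD, n = 4) CPM at 0 h, 49.8 ± 3.51 (SD, n = 4) at 16 h and 48.8 ± 10.3 (SD, n = 4) at 96 h (log2 -0.75 ± 0.23 and -0.77 ± 0.23, edgeR adjusted p = 0.0301 and 0.0255), calls that were lost in 6 and 5 of 16 alternatives (adjusted p up to 0.111 and 0.0981). The LAC line had 1 of 8 output genes called higher at 16 h, where 1.34% of all genes were called higher. At 96 h it had 1 higher and 1 lower, beside 6.74% and 8.64% of all genes. The largest count was at 0 h, where 4 of 8 were called lower in the LAC line than in the parental line. Of all genes 7.08% were called lower there and 15.8% in either direction. Those 0 h libraries also enter the LAC changes. For LB2 at 0 h edgeR called 0 of 8 (1 at an unadjusted p under 0.05, 1 by DESeq2, 8.21% of all genes). In the LB2 line edgeR called 0 at 16 h (4 at an unadjusted p under 0.05, 0 by DESeq2, 1.81% of all genes). At 96 h it called 0 (1 at an unadjusted p under 0.05, 0 by DESeq2, 3.55%). Set against the parental change, edgeR called 0 of 15 other clock genes and 0 of 8 output genes in LAC at both times. DESeq2 called 0 and 1 of them at 16 h (1.04% of all genes) and 1 and 3 at 96 h (9.24%). Under an unadjusted p of 0.05 were 1 and 4 at 16 h and 4 and 4 at 96 h. In edgeR 0.116% and 7.4% of all genes were called.

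The genes whose levels followed NR1D1 most closely were ranked by Pearson's r of mean log2 CPM over the 12 groups, among 13996 genes with a symbol and a mean of at least 1 CPM. The first 5 were TMEM80 (r = 0.918), BRSK1 (0.871), NCAPG2 (0.851), PRX (0.839) and ZNF564 (0.821). TMEM80 averaged 43.4 CPM in the LB1 line at 0 h and 24.1 at 96 h, its highest and lowest groups as for NR1D1. Within the clock group r with NR1D1 was 0.784 for NR1D2, 0.699 for TEF, 0.456 for DBP and 0.416 for PER1, and between -0.234 (CLOCK) and 0.0708 (PER3) for the rest. The 12 points share libraries, lines and depth, and the coefficients describe these groups only. Among the points are the LB1 groups from which the members were chosen.

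**Figure D4:**
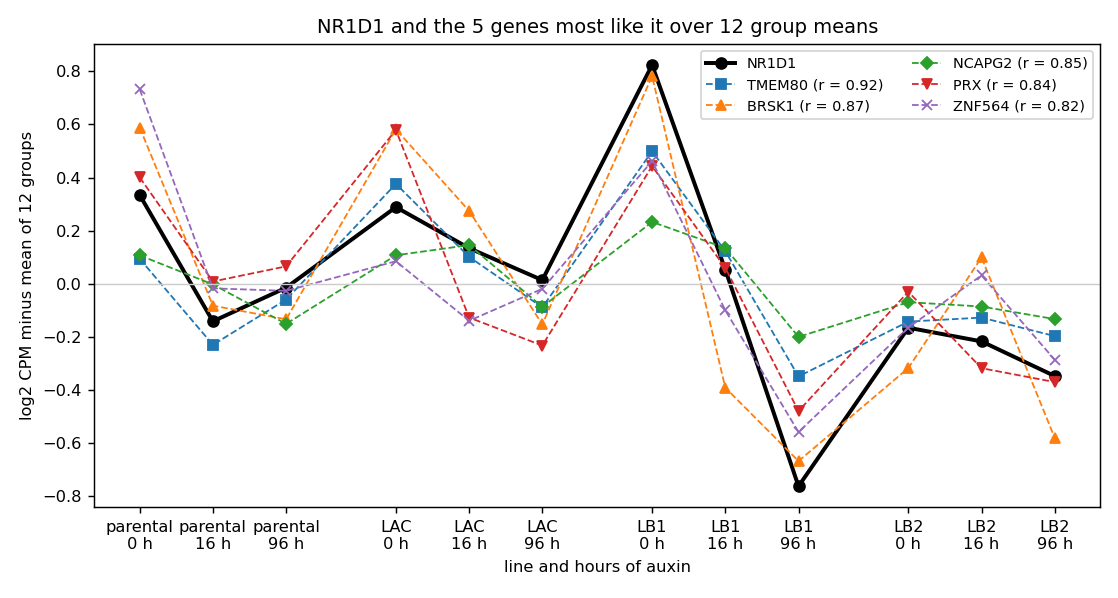
Mean log2 CPM of NR1D1 and of the 5 genes most like it in each of the 12 groups (x axis, line and hours of auxin), each gene centred on its own mean over the groups. All 6 curves have lower values at 96 h than at 0 h in the LB1 line, and NR1D1 has the widest swing there.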

How the data were processed

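RNA of 46 libraries was purified with RNeasy columns, made into libraries with the Illumina Stranded Total RNA kit after Ribo-Zero Plus depletion and sequenced in pairs on a NextSeq2000, per the labels' protocols. The authors deposited 1 table of raw read counts per gene, made with featureCounts 1.6.4 in an nf-core/rnaseq 1.4.2 environment per the file headers. The submitters' processing notes also list STAR 2.7.10a, SAMtools 1.10, deepTools 3.4.5, DESeq2 1.40.2 and GRCh38, without roles. Whether strand was used in counting, how multi-mapping reads were treated and which gene annotation was used is not given in the sources used here. Of 62756 genes, 42341 (67.5%) have a symbol. Left out was 1 more gene, whose entry is split across 3 lines.

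All 46 libraries were fitted together with edgeR 4.0.16 (R 4.3.3) as 12 groups: TMM scaling, edgeR's filter on low counts (21484 genes kept), the quasi-likelihood test, 2-sided, with Benjamini-Hochberg adjustment over all genes tested and a threshold of 0.05. Log2 changes and their SE are from that fit, and levels are TMM-scaled CPM computed from the counts, with mean ± SD over libraries. The comparisons tested were 16 and 96 h against 0 h within a line, that change minus the parental one, and tagged against parental at 0 h, for the parental, LAC and LB2 lines. Comparisons of the LB1 line are described only, because the group was chosen from them. The members and the lists of other clock genes, output genes and markers were chosen with earlier results of these data known. Besides the 10 members, BMAL1 is named in any case, and so are listed genes with calls of 1 sign at 16 and 96 h in a line or called in a difference between lines, genes that overlap a member, the 3 lamins, and the 5 genes most like NR1D1 (mean of at least 1 CPM, log2 with a prior count of 2). Lists are described by counts and medians, with no set test.

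Depth ran from 479446 to 37309421 counts, so that 3 counts equal 6.26 CPM in the shallowest library and 0.0804 in the deepest, and such limits cover counting error only. All 66 replicate pairs differed beyond sampling noise (lowest chi-square per degree of freedom 3.97), so none was taken as 1 library deposited under 2 names. The alternatives tried were scaling by RLE or by library size only, no filter on low counts, no library under 5000000 counts, a replicate block, removal of the trend with GC content and length (GENCODE 29, 92.8% of genes), a fit to the compared groups alone, DESeq2 1.42.0 and each single library left out. The scripts were tested on simulated data. Promoter sequences are from RefSeq.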

Additional observations from a re-analysis of the deposited data

Results flagged for a closer look

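Each of the 10 genes was checked in each of the 10 groups of 4 libraries for a library far from the other 3. In these 100 checks 8 were found, where chance alone gives about 1 in 20. The genes share the same libraries, so the checks are not independent. NR1D1 was 17.4 CPM (213 counts) in parental replicate 1 at 96 h, below 22.4 to 23.0 CPM in the others. CLOCK was 209 CPM in parental replicate 2 at 0 h, above 149 to 155, and without it the CLOCK change at 96 h was 0.59 on the log2 scale (edgeR adjusted p = 0.0376). CRY1 was 52.3 CPM in LAC replicate 4 at 0 h, above 49.1 to 49.2, and 65.1 CPM in LAC replicate 3 at 16 h, above 54.3 to 55.3. CRY2 was 27.1 CPM in LB2 replicate 1 at 16 h, above 21.8 to 22.3. The other 3 came from shallow libraries. In LB2 replicate 1 at 0 h PER1 was 32.7 CPM (59 counts), above 12.2 to 14.3, and DBP 16.1 CPM (29 counts), above 7.18 to 8.29. In LAC replicate 1 at 0 h DBP was 15.9 CPM (49 counts), above 6.51 to 7.84.

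The 96 h change of BHLHE40 in the LB2 line was 1.16 above the parental change on the log2 scale, a tested difference between lines (edgeR adjusted p = 0.0266).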

How the results depend on the processing

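The number of members called changed by over 1.5 times under some alternative in 10 of the 12 tested comparisons. With the trend with GC content and length removed, the parental line had 5 members called at 16 h and 4 at 96 h. That fit called 13.5% and 14.6% of all genes there. It gave 2 and 4 members in the LAC line (1.64% and 14.6% of all genes) and 4 in the LB2 line at 96 h (8.16%). The count was 1 for the LAC change minus the parental one at 96 h (8.49%). Against parental at 0 h it was 5 for LAC (20.2%) and 4 for LB2 (14.0%). In the compared groups alone the count was 5 in the parental line at 16 h, where that fit called 22.5% of all genes. It was 0 in the LAC and LB2 lines at 16 h (0.064% and 0.0243% of all genes). In the LB2 line at 96 h it was 1 (0.32%), and at 0 h it was 0 for LAC (9.06%) and LB2 (3.18%). With no filter the count was 2 for LAC at 16 h (2.02% of all genes), 1 for LAC at 0 h (5.91%) and 1 for LB2 at 0 h (2.71%). By library size only the count was 2 for LAC at 96 h (18.1% of all genes) and 4 for LAC at 0 h (17.5%). Without libraries under 5000000 counts it was 2 for LAC at 16 h (0.852% of all genes) and 1 for the LAC difference at 96 h (7.73%). DESeq2 gave 2 for LAC at 16 h (5.54% of all genes) and 1 for the LAC difference there (1.04%). Leaving out single libraries gave from 1 to 3 for LAC at 16 h, from 0 to 1 for the LAC differences at both times, from 1 to 3 for LAC at 0 h and from 1 to 2 for LB2 at 0 h. The cause was not tested. A smaller change was 4 in the parental line at 16 h (DESeq2, 9.83% of all genes). At 96 h the parental count was 3 (no shallow libraries, 11.7%, and compared groups alone, 15.6%). In LB2 at 16 h it was 2 (RLE, 1.3%, and library size only, 1.14%). LB2 had 3 at 96 h (RLE, 4.01%, no shallow libraries, 5.41%, and DESeq2, 5.81%). At 0 h LB2 had 3 (library size only, 8.46%, and DESeq2, 10.3%). Leaving out single libraries gave from 2 to 3 in the parental line at both times and in LB2 at 16 h. In LB2 the 16 and 96 h changes minus the parental ones had 0 members called under every alternative.

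Of 31 single results called in edgeR, 10 held under all their alternatives, and over 499 alternatives 97 lost the call and 0 changed sign. Of 30 not called, 30 of 547 alternatives gave a call and 13 the other sign. These were small values: with the GC trend removed, 0.0471 for CRY2 in the LAC difference at 16 h, -0.00231 for CLOCK and 0.0151 for NR1D1 in LAC at 96 h, 0.00803 for NR1D1 in LB2 at 96 h, -0.22 for NR1D2 in LAC at 96 h and -0.13 in LB2 at 16 h. NR1D1 in LB2 at 16 h was 0.0294 with no filter and 0.0141 without shallow libraries, where NR1D2 in LAC at 96 h was -0.087. Leaving out single libraries, NR1D1 in LB2 at 96 h ran from -0.28 to 0.11, NR1D2 in LAC at 96 h from -0.0862 to 0.26 and NR1D2 in LB2 at 16 h from -0.00435 to 0.23. In the LB1 line NR1D1, NR1D2, TEF, DBP and PER2 kept their sign in all 15 alternatives at both times.

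With a replicate block, 4 members were called in the parental line at 16 h (NR1D1 added, edgeR adjusted p = 0.0458), beside 8.71% of all genes. In LB2 at 0 h 3 members were called (NR1D1 added), beside 8.24% of all genes. Of the other 10 counts under the block, that of the parental line at 96 h was 2 (7.97% of all genes). LAC had 1 and 1 (2.22% and 15.9%) and LB2 3 and 2 (2.02% and 4.04%). The 4 differences had 0 (0.121% and 7.99% for LAC, 0.00465% and 0.549% for LB2), and LAC at 0 h had 2 (16.1%). The labels do not say that a number marks a shared batch, and over 243 pairs of the same number r of their deviations ran from -0.711 to 0.845 (median 0.0805), so the numbers were not taken as pairs. Still, 25 of 46 libraries correlated best with their own number, a hint from the data and not from the design. Depth limits PER3 and DBP most, and the 6 shallow libraries.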

Other observations

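HLF, the PAR bZIP gene beside DBP and TEF, was chosen after its values were seen. It was scarce, at 0.717 ± 0.351 (SD, n = 4) CPM at 0 h and 2.28 ± 0.688 (SD, n = 4) at 96 h in the parental line, 1.099 ± 0.901 (SD, n = 4) and 4.20 ± 0.509 (SD, n = 4) in the LAC line, and 1.46 ± 0.877 (SD, n = 4) and 4.08 ± 1.01 (SD, n = 3) in the LB2 line. HLF rose by 96 h in all 3, with a log2 change of 1.55 in the parental line (edgeR adjusted p = 0.0248), 1.66 in LAC (edgeR adjusted p = 0.00167) and 1.48 in LB2 (edgeR adjusted p = 0.035). The call was lost in 6 of 16 alternatives for the parental line and 6 of 15 for LB2, and in 0 of 16 for LAC. The LB1 line, not tested, went from 1.13 ± 0.979 (SD, n = 3) to 5.13 ± 0.953 (SD, n = 4) CPM. DBP and TEF did not pass in these comparisons.

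The LAC line at 96 h had 6 of 15 other clock genes called, HLF among them, in a line where 15.4% of all genes were. The other 5 are also named after their values were seen. CIPC rose by 0.56 (log2, edgeR adjusted p = 0.00142) and held in all 16 alternatives. RORA, an activator at RORE sequences, went from 255 ± 83.1 (SD, n = 4) to 376 ± 12.3 (SD, n = 4) CPM (log2 0.55, edgeR adjusted p = 0.00986). Without LAC replicate 1 at 0 h, its lowest library at 142 CPM and a shallow one, the RORA change was 0.37 (edgeR adjusted p = 0.0939). NFIL3, a repressor at D-boxes, had a log2 change of 0.86 (edgeR adjusted p = 0.0099), lost in 1 of 16 alternatives (compared groups alone, 0.0563). NPAS2, a relative of CLOCK that pairs with BMAL1, had 0.52 (edgeR adjusted p = 0.0406) and TIMELESS, a replication fork protein, was lower with -0.33 (edgeR adjusted p = 0.0318). Each of these 2 calls was lost in 8 of 16 alternatives, with adjusted p up to 0.172 and 0.481.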
